A study of Mus musculus with 6 samples.

Results

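Cohesin is the ring-shaped protein complex that holds sister chromatids together and shapes chromatin loops. The ring is built from an SMC pair and a kleisin that closes it, and a STAG subunit binds the kleisin. Somatic cells use SMC1A with SMC3, the kleisin RAD21, and STAG1 or STAG2. Germ cells in meiosis make paralogues of these proteins: SMC1B replaces SMC1A, REC8 or RAD21L replaces RAD21, and STAG3 replaces STAG1 and STAG2, while SMC3 has no meiotic paralogue. The meiotic genes are normally silent outside the germ line, where the Polycomb complex PRC1.6 binds promoters through E2F6 and through MGA with its partner MAX, and where H3K9 methylation also covers many germline genes.

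All 9 cohesin subunit genes were followed in bulk RNA-seq of embryonic mouse skin. They comprise 5 mitotic subunits (Stag1, Stag2, Rad21, Smc1a and Smc3) and 4 meiotic subunits (Stag3, Rec8, Rad21l and Smc1b), and each matched exactly 1 of the 55536 genes counted. The group was selected on the rise of Stag3 in the knockout, so the values of all 9 genes between the groups are a description and carry no test.

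The cells were basal keratinocytes of the dorsal skin at embryonic day E16.5, sorted by FACS as Epcam+ α6+, with 3 libraries in each of 2 groups. Both groups were Suv39h2-/- and carried floxed alleles of Suv39h1 and Setdb1, and these 3 genes encode H3K9 methyltransferases. TKO embryos also carried K14CreERT2, a tamoxifen-inducible Cre recombinase driven by the promoter of the basal keratin 14, and Ctrl embryos were littermates without it, so Suv39h2 was lacking on both sides of the comparison. Dams of both groups received tamoxifen on consecutive days of gestation, and the study lists the deletion in the embryos used for bulk RNA-seq as mosaic. Ctrl 1 and TKO 2 were labelled female and the other 4 male. Xist was at 2638 and 2699 CPM (counts scaled to the TMM-normalised library size) in the libraries labelled female and below 1 CPM in the others, and the Y-linked Ddx3y, Eif2s3y and Kdm5d were at 0 in those labelled female. The labels give replicate numbers, but do not say whether libraries of a group came from different litters.

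Each library held between 102159175 counts (Ctrl 1) and 136515436 counts (Ctrl 2), and the detection floor of 3 counts was equal to 0.0232 to 0.0303 CPM. TKO 3 stood apart on the first principal component, which took 29.1% of the variance, and the second, with 25.3%, separated TKO from Ctrl. Results that rest on TKO 3 are therefore also given without it.

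Short stretches of promoter are shown for 3 of the meiotic subunits and for Stag1 as a mitotic counterpart, because PRC1.6 is known to find germline promoters through E2F6 and MGA. RefSeq promoter windows, from 250 bases before to 50 after a gene's start, were given for 7 of the 9 genes; Stag2 and Rad21 had no entry. Each window matched its own chromosome in the GRCm39 genome exactly at 1 place, and other chromosomes were not searched. They were searched for TCCCGC on either strand (GCGGGA on the other), the core of E2F sites, and for CACGTG, the palindromic E-box that MYC, MAX and related proteins bind. Capitals mark the match in each 30-base stretch, written 5′ to 3′ on the strand of the gene.
Stag3, chr5:138278757-138278786, plus strand: tatcccgtgcctTCCCGCgtttttttctaa
Stag3, chr5:138278589-138278618, plus strand: cgcgctggagccCACGTGacaggactgcac
Smc1b, chr15:85016188-85016217, minus strand: aaaagaatttctTCCCGCgctttttttttt
Rec8, chr14:55855573-55855602, plus strand: gtgtgcacctgaTCCCGCtggagggcgaca
Stag1, chr9:100525474-100525503, plus strand: aaaggccacgttTCCCGCgccgctgctgcg

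TCCCGC lay at the RefSeq start of Stag3 (position -2), at -47 of Smc1b, at -38 of Rec8 and at -15 of Stag1. The first GENCODE vM39 start lies upstream of the RefSeq start by 269 bases for Stag3, 168 for Rec8, 46 for Smc1b and 45761 for Stag1, so that the Stag1 window is that of an internal start. The match overlaps the 5′ UTR of 3 GENCODE transcripts of Stag3, 7 of Rec8 and 7 of Smc1b, where it spans the first start, and of none of Stag1. Smc3 held 2 matches as GCGGGA, at -116 and 29, and Smc1a held 1 at 39. Thus 6 of the 7 windows, of both classes, held the motif, and Rad21l held none. TCCCGC was present in 20.0% of all 32851 RefSeq promoter windows of this length, CACGTG in 7.15% and both in 1.99%. Of the members, Stag3 was the only one with both, its CACGTG lying at -170. CpG dinucleotides were frequent in the windows of Stag1 (43 in 300 bases), Smc3 (32), Stag3 (30), Smc1b (29), Smc1a (23) and Rec8 (18), whereas Rad21l held 2, a number that 14.1% of all windows fell below. These matches describe the letters of the windows, and no binding was measured here.

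The targeted genes were examined first. Setdb1 was at 126, 118 and 121 CPM in Ctrl 1 to 3 and at 95.3, 62.3 and 74.9 CPM in TKO 1 to 3. Every TKO library was below every Ctrl library, with a log2 fold change of -0.65 (SE 0.161), which did not pass edgeR's quasi-likelihood test after Benjamini-Hochberg adjustment (adjusted p = 0.286) and had an adjusted p of 0.0449 in DESeq2. Suv39h1 was at 88.7, 78.5 and 84.0 CPM in Ctrl and at 75.6, 68.9 and 89.4 CPM in TKO, and the groups overlapped (log2 fold change -0.10, SE 0.137, edgeR adjusted p = 0.9998). Suv39h2 was counted at 15.6 to 17.1 CPM in Ctrl and 16.0 to 18.9 CPM in TKO, although both groups were labelled as lacking it. These counts sum the whole gene, and exons outside a deleted part are counted too, so they do not check the floxed or null alleles.

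Among the meiotic subunits, Stag3 was higher in every TKO library. It had 189, 181 and 283 counts in Ctrl 1 to 3 and 2186, 3135 and 2889 counts in TKO 1 to 3. Scaled to library size these were 1.91, 1.40 and 2.63 CPM in Ctrl and 18.6, 28.4 and 23.8 CPM in TKO. The groups stood far apart, the lowest TKO library lying 7.08 times above the highest Ctrl library. The mean was 1.98 ± 0.615 CPM for Ctrl and 23.6 ± 4.91 CPM for TKO (SD, n = 3 each), a log2 fold change of 3.58 (SE 0.278) or 11.9-fold. Stag3 was the only one of the 8 members tested that met the call rule, a log2 fold change beyond 1 in either direction with a Benjamini-Hochberg adjusted p under 0.05 in edgeR. By that rule 27 of 20622 genes (0.131%) were called higher in TKO, and 0 lower, with 416 lower at an unadjusted p under 0.05 and 21 called lower by DESeq2. Since this contrast chose the group, nothing is read from that count. Without TKO 3 the log2 fold change of Stag3 was 3.57, and over all 6 libraries left out in turn it lay between 3.38 and 3.83.

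Rec8, the meiotic kleisin that STAG3 binds, was at 0.364, 0.387 and 0.742 CPM in Ctrl 1 to 3 and at 2.78, 5.42 and 0.584 CPM in TKO 1 to 3. TKO 1 and TKO 2 were above all Ctrl libraries, whereas TKO 3 lay within the Ctrl range, below Ctrl 3. Its log2 fold change was 2.56 (SE 0.706). Without TKO 3 it was 3.04, and without TKO 2, the library with the most Rec8, 1.76. Stag3 exceeded Rec8 in every library on the scale of CPM per kb of exon, by 2.24 to 4.23 times in 5 libraries and by 25.7 times in TKO 3. The library with the least Rec8 of the TKO group was thus not the one with the least Stag3.

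Smc1b, the meiotic partner of SMC3, had few counts. It had 8, 0 and 24 counts in Ctrl and 66, 20 and 0 counts in TKO, or 0.0808, 0 and 0.223 CPM against 0.561, 0.181 and 0 CPM. The groups overlapped, and 1 library of each group had no count. The log2 fold change of 1.29 had an SE of 1.54, it was 1.88 without TKO 3 and 2.63 without Ctrl 3, and it turned to -0.17 without TKO 1. The difference in Smc1b was smaller than its error. Rad21l, the other meiotic kleisin, had 0, 0 and 16 counts in Ctrl and 2, 7 and 0 counts in TKO. It passed 3 counts in 2 of the 6 libraries and was left out of the test by the filter on low counts. No fold is given for it.

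**Figure D1:**
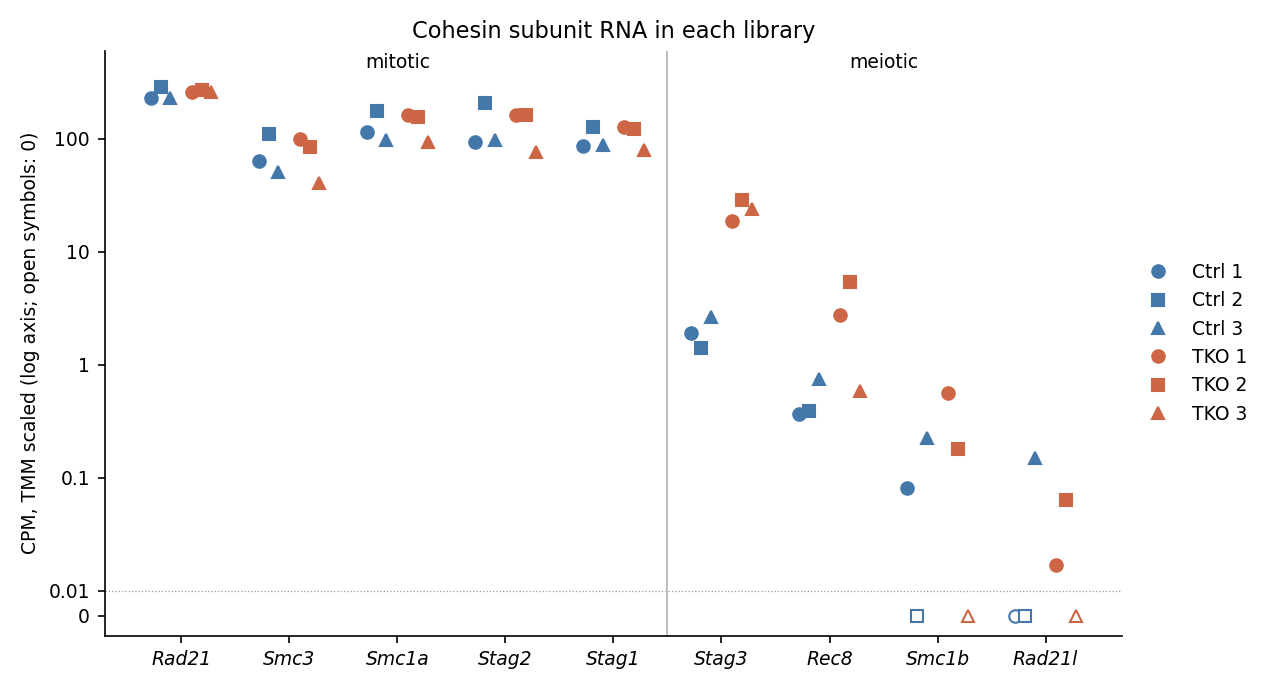
Level of each cohesin subunit in CPM (TMM scaled, log axis) in each of the 3 Ctrl (blue) and 3 TKO (orange) libraries, with replicate number shown by symbol and zeros as open symbols at the bottom. The 5 mitotic subunits overlap between groups, and of the 4 meiotic subunits Stag3 alone has every TKO library (18.6 to 28.4 CPM) above every Ctrl library (1.40 to 2.63 CPM).

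None of the 5 mitotic subunits met the call rule, and their groups overlapped in each case. Their log2 fold changes ran from -0.005 to 0.12 with a median of 0.077, beside 0.013 for all tested genes. The median was 0.29 without TKO 3 and 0.37 without Ctrl 2. For the 3 tested meiotic subunits the median was 2.56, with a range of 1.29 to 3.58, and it was 3.04 without TKO 3, 1.76 without TKO 2 and 1.90 without a filter on low counts, where all 4 enter. All TKO libraries exceeded all Ctrl libraries for 1 of the 9 subunits and for 6.35% of all tested genes, and all TKO libraries were below all Ctrl libraries for 0 of the 9 and for 5.11% of tested genes. The fold changes with their standard errors are drawn in the plot of TKO against Ctrl.

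**Figure D2:**
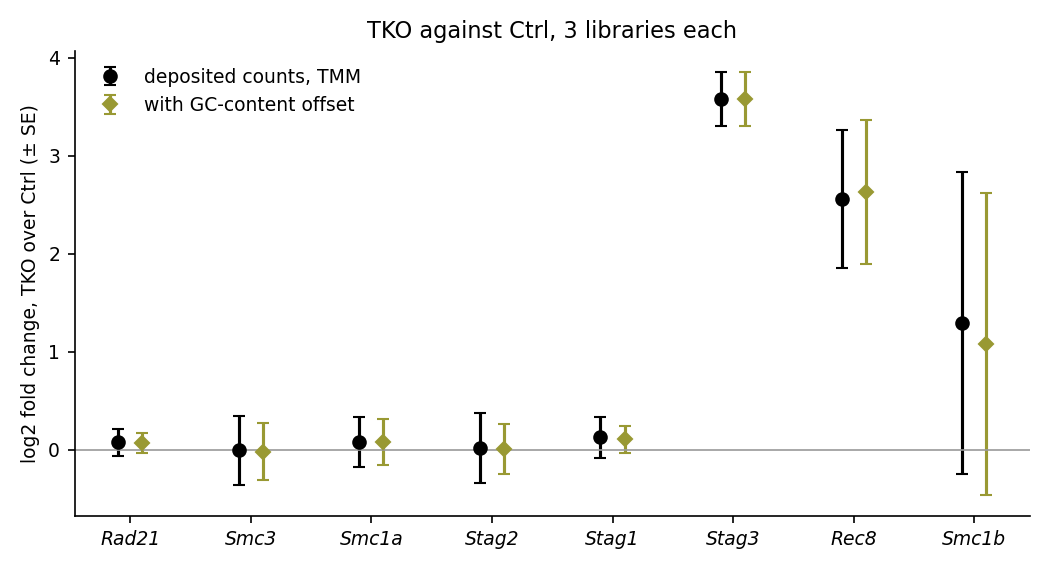
Log2 fold change of TKO over Ctrl with its standard error for the 8 tested subunits (3 libraries per group), from the counts as deposited (black circles) and with an offset for GC content in each library (olive diamonds). The mitotic subunits lie within 0.13 of 0, Stag3 is at 3.58 in both fits, and Rec8 and Smc1b carry wide errors.

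Rad21, the mitotic kleisin, varied least. It was at 231, 285 and 229 CPM in Ctrl and at 260.4, 267 and 258 CPM in TKO, a log2 fold change of 0.08 (SE 0.138). Stag2, the more studied of the somatic STAG proteins, was at 93.9, 205 and 98.0 CPM in Ctrl and at 162, 163 and 76.6 CPM in TKO, with a log2 fold change of 0.015 (SE 0.357). Stag1, its paralogue, was at 86.2, 127 and 87.9 CPM in Ctrl and at 126.5, 122 and 79.5 CPM in TKO, with a log2 fold change of 0.12 (SE 0.211). For both STAG genes the high libraries were Ctrl 2, TKO 1 and TKO 2, and the low ones Ctrl 1, Ctrl 3 and TKO 3.

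The SMC subunits showed the same split of libraries. Smc3, shared by mitotic and meiotic rings, was at 63.15, 111 and 50.8 CPM in Ctrl and at 98.7, 84.6 and 40.9 CPM in TKO, with a log2 fold change of -0.005 (SE 0.353). Smc1a was at 114, 176 and 97.3 CPM in Ctrl and at 162, 154 and 94.0 CPM in TKO, with a log2 fold change of 0.08 (SE 0.254). Stag2 and Smc1a lie on the X chromosome, and for both the libraries labelled female (Ctrl 1 and TKO 2) lay within the range of those labelled male.

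This spread within groups was set beside the base composition of transcripts. Among 9436 protein-coding genes, the quintile with the lowest GC content (33.3% to 43.8%) was shifted by a median of 0.23, 0.11 and 0.06 on the log2 scale in Ctrl 2, TKO 1 and TKO 2, and by -0.18, -0.07 and -0.12 in Ctrl 1, Ctrl 3 and TKO 3. The quintile with the highest GC content moved the other way in every library. Stag2 (39.6% GC), Stag1 (41.1%) and Smc3 (42.4%) belong to the lowest quintile, Rad21 (44.3%) and Smc1a (46.0%) to the next one and Stag3 (49.1%) to the middle one. Stag2 moved further than the median of that quintile and was 0.72 above its mean in Ctrl 2 and 0.71 below it in TKO 3. An offset for GC content in each library was then applied, chosen after seeing the data. With it the highest library of Stag2 exceeded the lowest by 2.02 times instead of 2.68, and that of Smc3 by 2.24 instead of 2.71. Smc1a changed less, at 1.76 times instead of 1.87, with an SE of 0.232 instead of 0.254. It was 0.45 above its mean in Ctrl 2, beside a median of 0.09 for its GC quintile. The standard error of Stag2 was then 0.258 and that of Stag1 0.139, and the log2 fold change of Stag3 stayed at 3.58 (SE 0.271).

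**Figure D3:**
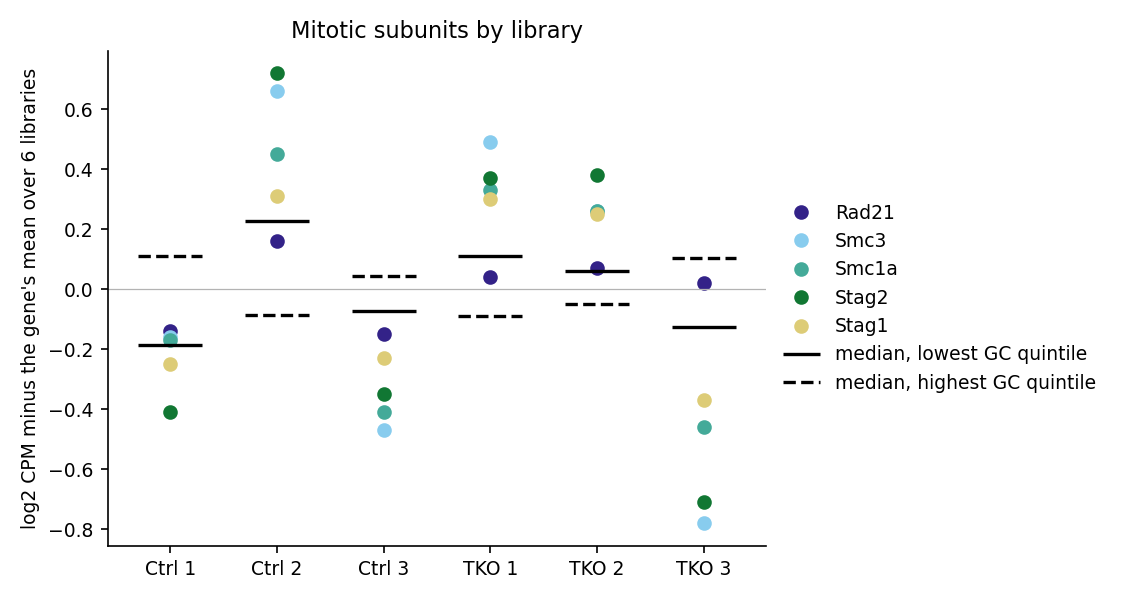
Log2 CPM of the 5 mitotic subunits in each library, minus the gene's mean over the 6 libraries. Black bars give the median of the same quantity for the quintile of genes with the lowest (solid) and highest (dashed) GC content; Stag2, Smc3, Smc1a and Stag1 are all above 0 in Ctrl 2, TKO 1 and TKO 2 and below 0 in the other 3 libraries.

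Levels were compared between subunits in Ctrl on the scale of CPM per kb of merged exon length. Rad21 was highest at 56.7 ± 7.24 (SD, n = 3) and its lowest library exceeded every library of the next gene. Smc3 (13.1 ± 5.53), Smc1a (13.0 ± 4.18), Stag2 (11.98 ± 5.72) and Stag1 (8.23 ± 1.90) followed, and each overlapped the next in range. Stag3 came after a gap at 0.345 ± 0.107, above Rec8 at 0.137 ± 0.0585 without overlap. Rad21l (0.0298 ± 0.0517) and Smc1b (0.0173 ± 0.0192) were last and could not be ordered. Among 15000 tested protein-coding genes, 97.3% had a lower Ctrl level per kb than Rad21 and 22.5% a lower level than Stag3. Dividing by the longest transcript instead of the merged exons put Smc1a and Stag1 ahead of Stag2 and Smc3 and left the place of Rad21 and of all meiotic subunits unchanged, but Stag3 and Rec8 then overlapped in range.

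In TKO, Stag3 reached 4.11 ± 0.856 CPM per kb (SD, n = 3), against 8.97 ± 2.13 for Stag1 and 12.1 ± 4.49 for Stag2 in the same libraries. The share of Stag3 in the RNA of the STAG genes was 2.09%, 0.835% and 2.77% in Ctrl 1 to 3 and 11.5%, 16.65% and 23.6% in TKO 1 to 3. Each TKO library was above each Ctrl library, with means of 1.90% ± 0.982 and 17.2% ± 6.06 (SD, n = 3). Without TKO 3 the TKO mean was 14.1%. TKO 3 had the largest share, with Stag3 between the other TKO libraries and Stag1 and Stag2 at their lowest. Counts not divided by length gave 0.954% in Ctrl and 9.44% in TKO.

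Rec8 and Rad21l together made up 0.189%, 0.164% and 0.560% of kleisin RNA in Ctrl and 1.29%, 2.45% and 0.273% in TKO. TKO 3 lay below Ctrl 3, so the groups overlapped, whereas TKO 1 and TKO 2 lay above every Ctrl library. The TKO mean was 1.34%, and 1.87% without TKO 3, beside 0.304% in Ctrl. Smc1b made up 0.120%, 0% and 0.386% of the SMC1 RNA in Ctrl and 0.583%, 0.199% and 0% in TKO, again with overlap. In bulk RNA, a change in the number of cells that express a gene and a change in RNA per cell cannot be told apart, and the deletion was listed as mosaic.

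**Figure D4:**
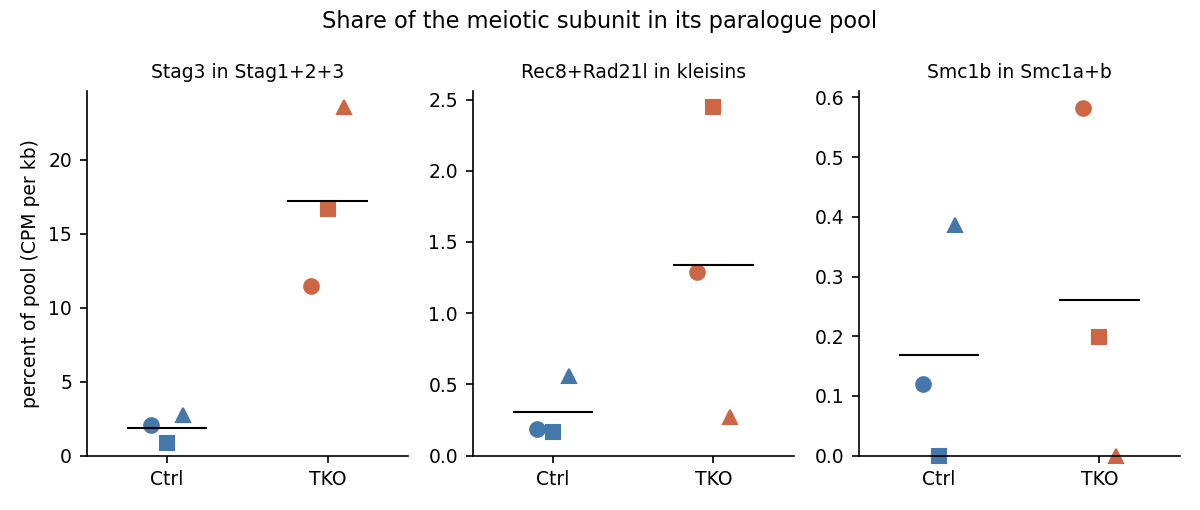
Percent of STAG, kleisin and SMC1 RNA (CPM per kb) that came from the meiotic paralogues in each of 3 Ctrl (blue) and 3 TKO (orange) libraries, with symbols for replicates 1 (circle), 2 (square) and 3 (triangle) and bars for the mean. Stag3 holds 0.835% to 2.77% in Ctrl and 11.5% to 23.6% in TKO, whereas the kleisin and SMC1 shares overlap between groups and stay below 2.5% and 0.6%.

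Among genes that load, release or protect cohesin, none of the 14 tested (of 14 listed) was called in either direction, with 0 at an unadjusted p under 0.05 (6.08% of all tested genes were) and 0 called by DESeq2, and their median log2 fold change was -0.02 beside 0.013 for all tested genes. The largest were Sgo2a, a shugoshin that shields centromeric cohesin, at 0.11 (SE 0.278) and Pds5a, a regulator of release and acetylation, at 0.10 (SE 0.160). The smallest were Esco1, a cohesin acetyltransferase, at -0.26 (SE 0.281) and Cdca5, which encodes sororin, a stabiliser of cohesion, at -0.24 (SE 0.189). All 4 had an edgeR adjusted p of 0.9998. Over all tested genes, edgeR called 0.131% higher and DESeq2 called 1.04%.

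The related condensin and SMC5/6 complexes were read in the same way. Of 16 members, all tested, 0 were called by edgeR or DESeq2 and 0 had an unadjusted p under 0.05, with a median of 0.06. Among all tested genes, 0.131% were called higher by edgeR, 1.04% were called by DESeq2 and 6.08% had such a p. A list of this size is too short to tell 0 from these shares. Eid3, a paralogue of the SMC5/6 subunit NSMCE4A, had the largest log2 fold change at 0.77 (SE 0.460, edgeR adjusted p = 0.994), and its libraries overlapped at 1.43 to 3.42 CPM in Ctrl and 1.85 to 5.43 CPM in TKO. Nsmce4a itself had the smallest at -0.26 (SE 0.120, edgeR adjusted p = 0.836), with every TKO library (53.5 to 55.7 CPM) below every Ctrl library (62.3 to 68.7 CPM). Smchd1, a non-canonical SMC protein of X inactivation, was at 0.29 (SE 0.168), and Nsmce3, an SMC5/6 subunit, at -0.11 (SE 0.162).

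Proliferation genes gave 0 calls among 11 tested, with 0 at an unadjusted p under 0.05, 0 called by DESeq2 and a median of 0.06. The shares of all tested genes were 0.131% called higher by edgeR, 6.08% at that p and 1.04% called by DESeq2. With 11 genes, 0 cannot be told from these shares. Bub1, a spindle checkpoint kinase, had the largest log2 fold change at 0.30 (SE 0.204), followed by the cyclin Ccna2 at 0.23 (SE 0.153). Mcm2, of the replicative helicase, was lowest at -0.11 (SE 0.128), and Mki67 was next at -0.08 (SE 0.272). Their edgeR adjusted p was 0.9998 in each case.

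Other genes of the meiotic chromosome axis, the synaptonemal complex and meiotic recombination were mostly, but not all, at low levels. Spo11, the most abundant of the list, was at 24.14, 21.99 and 34.35 CPM in Ctrl and at 32.95, 30.15 and 29.48 CPM in TKO. Ythdc2 (21.98 to 28.19 CPM in Ctrl), Mlh3 (15.35 to 25.91), Syce2 (9.538 to 14.91) and Prdm9 (3.537 to 5.139) were also expressed in Ctrl. For each of these genes, named after their values were seen, the groups overlapped. Of 33 listed, 20 passed the filter on low counts, 0 were called by edgeR, and the median log2 fold change was 0.16 with a range of -1.10 to 3.51. An unadjusted p under 0.05 was found for 2 of the 20, both higher in TKO, beside 6.08% of all tested genes, and the same 2 were called by DESeq2, which called 1.04% of all tested genes in either direction. Six6os1, a component of the central element of the synaptonemal complex, was at 0.252, 0.395 and 0.371 CPM in Ctrl and at 2.64, 7.41 and 1.61 CPM in TKO. All TKO libraries exceeded all Ctrl libraries, and the log2 fold change of 3.51 (SE 0.589) had an edgeR adjusted p of 0.0827 and a DESeq2 adjusted p of 1.99e-08. In edgeR with a replicate block the adjusted p of Six6os1 was 0.0389, and it was called. Iho1, which acts with the chromosome axis in the formation of meiotic DNA breaks, was at 0.283, 0.534 and 0.575 CPM in Ctrl and at 1.47, 1.24 and 1.46 CPM in TKO. Its groups did not overlap either, and the log2 fold change of 1.58 (SE 0.425) had an edgeR adjusted p of 0.342 and a DESeq2 adjusted p of 0.0394. Dmc1, the meiotic recombinase, also had groups that did not overlap (0.232 to 0.353 CPM against 0.436 to 0.752 CPM) and a log2 fold change of 1.03 (SE 0.492, edgeR adjusted p = 0.870), and it was chosen after its values were seen.

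All TKO libraries were above all Ctrl libraries for 3 of the 20 genes, beside 6.35% of all tested genes. The smallest log2 fold changes of this list were those of Sycp2l at -1.10 (SE 1.57) and Hormad2, an axis protein of the HORMA family, at -1.02 (SE 1.40), both below 0.23 CPM in every library. Sycp1, Sycp3 and Hormad1, other defining genes of the axis and synaptonemal complex, did not pass the filter, and neither did Stra8, the inducer of the meiotic programme. Their highest values were 0.176 CPM for Sycp1 (Ctrl 3), 0.263 for Sycp3 (TKO 1), 0.0909 for Hormad1 (Ctrl 1) and 0.0186 for Stra8 (Ctrl 3). Sycp1 had 17, 0 and 19 counts in Ctrl and 0, 1 and 0 in TKO. Hormad1 had 9, 2 and 5 counts in Ctrl and 0 in every TKO library. Sycp3 went the other way, with 0, 6 and 0 counts in Ctrl and 31, 24 and 0 in TKO. Of the 33 listed genes, 3 were at or below 3 counts in every library. These genes passed or failed the filter by their level in the same libraries, and the 20 that passed are not the whole list.

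The subunits of PRC1.6 and its partners were expressed in both groups. All 12 were tested, 0 were called by edgeR or DESeq2, 0 had an unadjusted p under 0.05, and their median was 0.02. For all tested genes the shares were 0.131% (edgeR, higher), 1.04% (DESeq2) and 6.08% (unadjusted p), from which 0 of 12 cannot be told apart. E2f6 was at 36.7, 38.2 and 35.9 CPM in Ctrl and at 33.9, 39.3 and 38.3 CPM in TKO. The largest log2 fold changes were those of Mga at 0.23 (SE 0.215) and Rybp at 0.20 (SE 0.162), and the smallest those of Tfdp2, an E2F dimerisation partner, at -0.18 (SE 0.169) and the HP1 protein gene Cbx3 at -0.13 (SE 0.233). Their edgeR adjusted p was 0.9998 in each case. RNA level does not measure binding of these proteins to the promoters shown above.

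**Figure D5:**
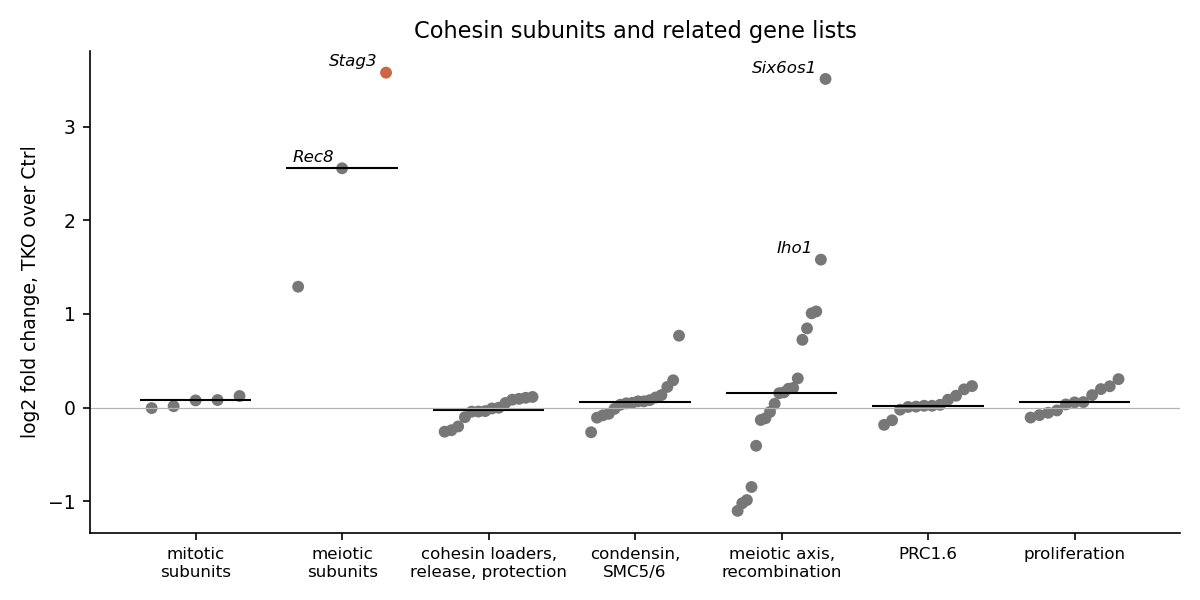
Log2 fold change of TKO over Ctrl for every tested member of 7 gene groups, ordered by value within a group, with a bar at the median; orange marks genes that met the call rule and grey those that did not. Stag3 (3.58) is the one orange point, with Six6os1 (3.51), Rec8 (2.56) and Iho1 (1.58) above 1.5 and the lists of somatic chromosome proteins close to 0.

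Genes around the members were examined because position was not used to choose them. Within 100 kb of a member, start to start, 79 genes were counted and 42 tested, and 0 were called by edgeR or DESeq2, with 2 at an unadjusted p under 0.05 (Psme2 and Dcaf11, near Rec8, named after their values were seen), beside 6.08% of all tested genes. Of all tested genes, 0.131% were called higher by edgeR and 1.04% were called by DESeq2. The 19 tested neighbours of Rec8 had a median log2 fold change of -0.24.

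Stag3 (chr5:138278502-138310655, plus strand, GRCm39) had 8 tested neighbours, with a median log2 fold change of -0.03. Gpc2, a cell surface heparan sulphate proteoglycan, starts 214 bases upstream and is read in the opposite direction. It was at 1.71, 1.32 and 4.70 CPM in Ctrl and at 3.68, 3.97 and 7.26 CPM in TKO. Ctrl 3 lay above TKO 1 and TKO 2, so the groups overlapped, and the log2 fold change of 0.95 (SE 0.492) had an edgeR adjusted p of 0.912. The other tested protein-coding neighbours were Trappc14 (0.14, SE 0.169), Taf6 (0.02, SE 0.173), Mblac1 (-0.24, SE 0.363), Cnpy4 (-0.27, SE 0.175) and Lamtor4 (-0.37, SE 0.272), none of which was called (edgeR adjusted p = 0.9998 for each log2 fold change).

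The library profiles most like that of Stag3, over 6 libraries by Euclidean distance between mean-centred log2 CPM, were Gm43834 (distance 0.84), Gm42047 (0.84), Rps3a2 (0.96), Gm16364 (1.0) and Gm26672 (1.04). The median distance of all 20621 other tested genes was 4.53. Rec8 lay at 2.94, the mitotic subunits at 4.40 to 4.79 and Smc1b at 5.58, farther than any of them. The 5 are 3 lncRNAs, an unclassified transcript and a processed pseudogene, with no protein-coding gene among them. Gm42047 was at 6.32, 8.63 and 12.6 CPM in Ctrl and 82.9, 175 and 85.2 CPM in TKO, Gm26672 at 0.353, 0.217 and 0.306 CPM and 4.56, 7.72 and 3.16 CPM, and Rps3a2 at 4.23, 5.02 and 4.21 CPM and 42.9, 52.8 and 38.7 CPM. These genes were picked for a profile like that of Stag3, so their difference between the groups is a description. Rps3a2 is a copy of a ribosomal protein gene, and its reads cannot be assigned with certainty. Gm43834 and Gm16364 had at most 1 count in any Ctrl library and 11 to 24 counts in TKO libraries.

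Markers of other cell types were read in the same libraries. The sorted cells expressed the basal keratinocyte markers strongly, led by Krt5 (8179 to 12320 CPM in Ctrl and 6994 to 9022 CPM in TKO) and Krt14 (4527 to 6370 CPM and 4203 to 5028 CPM), and Epcam was at 72.9 to 97.4 CPM. The 8 basal markers summed to 24330, 24100 and 18110 CPM in Ctrl and 15030, 16830 and 19230 CPM in TKO, and 0 were called by edgeR and 1 by DESeq2 (1.04% of all tested genes were). This was Krt15, named after its values were seen, at 2716, 2579 and 2089 CPM in Ctrl and 900.8, 792 and 1573 CPM in TKO, with every TKO library below every Ctrl library (log2 fold change -1.18, SE 0.256, edgeR adjusted p = 0.185, DESeq2 adjusted p = 0.00066). The 6 suprabasal markers, led by Krt1 and Krt10, summed to 18090, 17710 and 19590 CPM in Ctrl and 15850, 11880 and 12430 CPM in TKO. These sums did not overlap, all TKO libraries being lower, and 0 genes were called by edgeR or DESeq2 (0.131% of all tested genes were called higher by edgeR and 1.04% by DESeq2). Krt1 and Krt10, 2 of the 6, had an unadjusted p under 0.05 in edgeR (6.08% of all tested genes did). The same 2 had every TKO library below every Ctrl library (5.11% of all tested genes did). The sums are nearly all Krt1 and Krt10, and 3 of the 6 markers had a log2 fold change above 0, with a list median of 0.10.

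Germ cell markers, which bear on meiotic genes, were at low levels. The 7 genes summed to 2.57, 1.27 and 2.20 CPM in Ctrl and 2.26, 1.87 and 2.76 CPM in TKO, led by Dnd1 and Nanos3, so that the groups overlapped, and of the 4 tested 0 were called by edgeR and 1 by DESeq2 (1.04% of all tested genes were). The highest values were 1.74 CPM for Dnd1, 0.616 for Nanos3, 0.526 for Tex101, 0.189 for Dazl, 0.0404 for Pou5f1 and 0.0303 for Nanos2. Ddx4, the germ cell RNA helicase, was at 0.0606, 0.0619 and 0.0928 CPM in Ctrl and at 0.433, 0.525 and 0.378 CPM in TKO (log2 fold change 2.62, SE 0.657, edgeR adjusted p = 0.296, DESeq2 adjusted p = 0.0427), with every TKO library above all of Ctrl.

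The summed levels of Merkel cell and skeletal muscle markers did not overlap between the groups. The 5 Merkel cell markers summed to 6.94, 7.41 and 8.19 CPM in Ctrl and 2.46, 1.26 and 2.88 CPM in TKO, led by Krt8 and Sox2, and all 4 tested had every TKO library below every Ctrl library (5.11% of all tested genes did), with 0 called by edgeR (smallest adjusted p = 0.113) and 2 by DESeq2. The 6 skeletal muscle markers summed to 1.90, 3.17 and 2.68 CPM in Ctrl and 5.57, 9.88 and 12.1 CPM in TKO, and 5 of the 6 had a log2 fold change above 0, with 1 called higher by edgeR (0.131% of all tested genes were) and 2 called by DESeq2 (1.04% were, in either direction). The gene called by both was the embryonic myosin gene Myh3, at 0.656, 0.758 and 0.501 CPM against 3.87, 3.46 and 4.37 CPM (log2 fold change 2.61, SE 0.336, edgeR adjusted p = 0.0211). The other was Acta1, the skeletal muscle actin, at 0.353, 0.573 and 0.965 CPM in Ctrl and 0.960, 3.28 and 3.97 CPM in TKO (log2 fold change 2.12, SE 0.578, edgeR adjusted p = 0.360, DESeq2 adjusted p = 0.0122). Of the defining regulators of muscle, Myog was at 0.283, 0.813 and 0.315 CPM in Ctrl and 0.119, 1.44 and 1.66 CPM in TKO, and Myod1 and Myf5 were at most at 0.353 and 0.163 CPM.

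For the remaining lists the summed levels overlapped between groups. The 4 endothelial markers, led by Cdh5 and Pecam1, summed to 27.0, 24.2 and 36.6 CPM in Ctrl and 23.9, 59.1 and 48.8 CPM in TKO. The 7 fibroblast markers, led by Col1a1 and Dcn, summed to 1209, 3370 and 3023 CPM in Ctrl and 2170, 2571 and 2822 CPM in TKO, the lowest in Ctrl 1. The 6 immune markers, led by Csf1r and Lyz2, summed to 19.0, 40.2 and 11.2 CPM in Ctrl and 4.44, 69.7 and 14.6 CPM in TKO. The 5 melanocyte markers summed to 6.52, 10.2 and 12.7 CPM against 10.7, 11.4 and 13.4 CPM, led by Mitf and Dct. In these 4 lists 0 genes were called by edgeR or DESeq2 (0.131% of all tested genes were called higher by edgeR and 1.04% by DESeq2). The part of these other cell types in the level of Stag3 was not tested.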

How the data were processed

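Bulk RNA-seq of 3 Ctrl and 3 TKO libraries was analysed. The authors depleted rRNA, prepared libraries with NEBNext Ultra II RNA, sequenced read pairs, trimmed them with fastp, and aligned them with STAR. The deposited table gives raw counts for each Ensembl gene in each library, not normalised by the authors. The study's methods name GRCm39, and the submitters' processing notes name GRCm38; the counting program, annotation and strand setting are not given in the sources used here, so reads of overlapping antisense genes (Ribc1 in Smc1a, 58 to 179 counts) cannot be told apart. Symbols and positions came from GENCODE vM39 (51477 of 55536 genes matched); promoter windows came from RefSeq (GRCm38.p6) and were placed on GRCm39 by exact match.

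Counts were fitted across all genes with edgeR 4.0.16 in R 4.3.3 (filterByExpr, minimum count 10 and minimum total 15, 20622 genes; TMM; glmQLFit, robust; glmQLFTest), tested on simulated data. Calls needed an adjusted p under 0.05 with a log2 fold change beyond 1 in either direction. The standard error (SE) of an edgeR log2 fold change was back-calculated. It is the absolute log2 fold change divided by the square root of the quasi-likelihood F statistic. DESeq2 1.42.0, other scalings and filters, sex, a replicate block, each library left out and a GC-content offset (chosen after seeing the data) were alternatives. P-values weigh the difference between the groups against the spread between these libraries within a group.

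The members and lists were chosen with earlier results of these data known. Genes named are the 9 subunits, the 3 targets, per list the called members and the 2 largest and 2 smallest log2 fold changes, protein-coding neighbours of Stag3, its 5 most similar profiles (prior count 2) and the 2 most abundant markers per cell type. Others are named as background, as defining markers or as chosen after their values were seen. A further cell type list is not reported here.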

Additional observations from a re-analysis of the deposited data

How the results depend on the processing

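The group was chosen for the rise of Stag3 in these libraries, so its call, made in all 14 alternatives with log2 fold changes of 3.38 to 3.83, is no independent support. The number of called genes within 100 kb of it stayed at 0. Genes called higher and lower were 27 and 0, against 193 and 21 in DESeq2, 213 and 22 without a filter on low counts, and 9 and 0 with at least 10 counts in every library, where Smc1b could not be tested. DESeq2 called 2 other meiotic genes, and 1 was called without the filter. With a library left out, genes called higher ranged from 7 to 65 (8, 7 and 8 without Ctrl 1, 2 and 3, and 25, 15 and 65 without TKO 1, 2 and 3), genes called lower from 0 to 16 (the latter without TKO 3) and other meiotic genes from 0 to 1 (Six6os1, without TKO 3). The GC-content offset gave 28 and 0. Rec8 ranged from 1.76 to 3.04, Smc1b from -0.17 to 2.63 and the 5 mitotic subunits from -0.27 to 0.48. Without Ctrl 2 the median log2 fold change was 0.37 for mitotic subunits, 0.24 for condensin and SMC5/6, 0.20 for proliferation genes and 0.13 for cohesin loaders. The share of Stag3 in STAG RNA in TKO was 17.2% per kb and 9.44% from counts not divided by length; per longest transcript, Ctrl levels were 15.9, 0.224 and 24.1 CPM per kb for Stag1, Rec8 and Smc1a. The causes of these differences were not tested.

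Same-numbered Ctrl and TKO libraries had correlations of 0.168, 0.087 and 0.127 between their deviations from the group means. Libraries of different numbers had -0.161 to 0.040, so each library correlated best with its own number. The labels do not say whether same-numbered libraries were pairs, such as littermates. The main fit did not treat them as pairs, and these correlations do not exclude a pairing. With a replicate block, 44 genes were called higher and 1 lower, 1 other meiotic gene (Six6os1) was called, and the log2 fold change of Stag3 was 3.59.

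Smc1b and Rad21l had at most 66 and 16 counts in a library and 0 in others, and little can be said of either.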
